A study of Mus musculus with 1479 samples.

Results

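Steroid receptors and glucocorticoid targets are followed here through the single mesenchymal cells of the mouse bladder. The group holds 6 genes, taken by name from the 46517 gene rows of the count table, of which 29351 had at least 1 read. 4 of them encode nuclear receptors, namely Esr1, Pgr, Nr3c1 and Nr3c2, and the other 2, Fkbp5 and Tsc22d3, are textbook targets of the glucocorticoid receptor. The rule named the genes and used none of their values, but they were picked with earlier results of these data known.

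Cells came from the bladders of adult male mice of 10-20 weeks, and each of the 1479 samples is 1 cell with its own Smart-seq2 library, a protocol that copies full-length polyadenylated RNA into cDNA without molecular identifiers. The mice belonged to 5 lines. In PdgfrbGFP (810 cells) a transgene puts GFP under the Pdgfrb promoter, in PdgfraGFP (147 cells) a nuclear GFP is knocked into Pdgfra, in Cspg4dsRED (203 cells) and Acta2GFP (129 cells) transgenes use the Cspg4 and Acta2 promoters, and C57BL6 (190 cells) carries no reporter, for which the methods give antibody staining of PDGF receptors as the route of sorting. All lines were on the C57BL6 background, no animal was given a hormone or drug treatment that the labels name, and CD31-positive cells were gated out. The labels give a cluster number from 1 to 11, which the study derived from the same expression values. It took cluster 10 (125 cells) for the pericytes and smooth muscle of vessels, called mural cells here, and cluster 5 (76 cells) for fibroblasts beneath the urothelium. The other 9 clusters were pooled here with cluster 5 as the fibroblast clusters. They include cluster 4 (23 cells), which is not named more closely here and in which the fibroblast markers described further on summed to 7945 and the mural markers to 226. The labels name no animal, so each line served as 1 unit. This assumes that lines are independent, although per the methods the strains were also combined, so that a mouse could carry more than 1 reporter, and line, sort and plate cannot be told apart in full.

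Steroid hormones cross the cell membrane and bind receptors that are themselves transcription factors. Nr3c1, the glucocorticoid receptor, waits in the cytoplasm with heat shock protein chaperones until it binds corticosterone, the main glucocorticoid of mice, and then moves to the nucleus. Nr3c2, the mineralocorticoid receptor, binds both aldosterone and corticosterone. Esr1, estrogen receptor alpha, turns on Pgr, the progesterone receptor, in many estrogen-responsive tissues. Fkbp5 is a co-chaperone that lowers the hormone affinity of the glucocorticoid receptor and so closes a feedback loop, and Tsc22d3, also known as GILZ, restrains inflammatory signaling.

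The receptor genes lie on 4 chromosomes. In GRCm38, Esr1 (ENSMUSG00000019768) spans chr10:4611593-5005614 on the plus strand, Pgr (ENSMUSG00000031870) chr9:8899833-8968611 on the plus strand and Nr3c2 (ENSMUSG00000031618) chr8:76899442-77245012 on the plus strand, while Nr3c1 is ENSMUSG00000024431. Of the targets, Fkbp5 (ENSMUSG00000024222) spans chr17:28399094-28517527 and Tsc22d3 (ENSMUSG00000031431) chrX:140539528-140600659, both on the minus strand. Counts are over exons. Of the 6 genes, only Nr3c2 shares exon bases with another gene, 247 of them with Gm10649 on the opposite strand, and since no strand setting is stated for the counting, reads there cannot be assigned with certainty.

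The 2 targets were read at the promoter, because a glucocorticoid-responsive gene can carry receptor binding sites near or far from its start. RefSeq (GRCm38.p6) gave 8 starts for 5 of the 6 genes. The sequences below are the 250 bases before the start, 5′ to 3′ on the strand of the gene. Capitals mark AGAACA or its complement TGTTCT, the half-site that the glucocorticoid receptor binds in pairs, and GGGCGG or CCGCCC, the GC box bound by Sp1. The Fkbp5 window lies at chr17:28486150-28486399 and the Tsc22d3 window, from the start farthest upstream, at chrX:140600523-140600772, both on the minus strand.
Fkbp5: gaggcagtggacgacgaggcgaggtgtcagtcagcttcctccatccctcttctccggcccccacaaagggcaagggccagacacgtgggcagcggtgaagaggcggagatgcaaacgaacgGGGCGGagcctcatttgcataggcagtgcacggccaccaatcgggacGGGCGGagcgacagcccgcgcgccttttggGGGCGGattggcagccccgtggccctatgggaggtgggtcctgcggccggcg
Tsc22d3: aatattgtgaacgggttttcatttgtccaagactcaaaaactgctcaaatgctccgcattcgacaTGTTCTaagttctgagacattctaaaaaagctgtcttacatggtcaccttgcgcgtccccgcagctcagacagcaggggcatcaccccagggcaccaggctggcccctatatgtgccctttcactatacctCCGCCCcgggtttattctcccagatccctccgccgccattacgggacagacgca
The Fkbp5 window held 3 GC boxes and no AGAACA half-site. The Tsc22d3 window held 1 half-site, 185 to 180 bases before the start, and 1 GC box. The windows of its further starts, at chrX:140542669-140542918 and chrX:140548572-140548821, are not shown and held no half-site. Searched on both strands, the half-site was in 1 of the 8 windows of these genes and in 16.1% of the 32851 RefSeq windows of the same length, and the GC box in 5 of 8 and 32.7%. The estrogen receptor half-site GGTCA or TGACC was in 3 of 8 windows and 35.2% of all. These matches describe letters and say nothing of binding.

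Depth set what could be seen of each gene. Total reads per cell ran from 50276 to 1.44606e+06 with a median of 214893, and the median by line from 120376 in PdgfraGFP to 293659 in C57BL6. Cluster 10 was shallower (median 130406) than cluster 5 (261652). Tsc22d3 had 107425 reads over all cells and was read in 1194 cells, Nr3c1 56508 reads in 1116 cells, and Fkbp5 13498 reads in 489 cells. Nr3c2 had 4206 reads in 237 cells, Esr1 3832 in 158 and Pgr 657 in 20. In cells with a read, the median was 51 reads for Tsc22d3 and 22 for Nr3c1, but 2 for Fkbp5 and Nr3c2 and 1 for Esr1 and Pgr, so the low receptors rested on a small number of well-read cells.

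Marker genes followed the labels of the classes. A level counts the reads of a gene per 500000 endogenous reads. It was taken per cell, averaged within each line that had at least 3 cells, and then across lines, and errors are the SD of the lines. The summed level of 8 mural markers (Acta2, Myh11, Tagln, Des, Mcam, Notch3, Rgs5, Cspg4) was 10435 in cluster 10 and 140.5 in the fibroblast clusters, and that of 6 fibroblast markers (Pdgfra, Col1a1, Col1a2, Lum, Dcn, Cd34) was 1130.4 and 13513. Within the fibroblasts, mural markers summed to 577.8 in cluster 5 (lines from 435 to 751) and 111.7 in the other clusters (63.1 to 169.6), without overlap. Acta2 made up most of the sum in cluster 5 (412 ± 136), while Des, Mcam, Notch3 and Rgs5 each stayed under 1 there, and the part of this in the results for cluster 5 was not tested. The 4 sub-epithelial markers (Tnc, Bmp5, Bmp7, Cxcl14) summed to 1815 in cluster 5 and 87.2 in the other fibroblasts. Endothelial, immune, urothelial and Schwann cell lists each stayed at or under 25.1 on average in clusters 5 and 10, with Cd3e at 0 in both and Cd79a at 0 in cluster 5, although urothelial markers summed to 59.0 in 1 line of cluster 5.

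Per length of gene, Tsc22d3 was the most abundant of the 6 in fibroblasts. In reads per 500000 and per kb of exon its level was 26.1, followed by Nr3c1 at 9.25, Fkbp5 at 1.66, Nr3c2 at 0.64, Esr1 at 0.50 and Pgr at 0.10. The glucocorticoid receptor was thus the leading receptor of the 4 in bladder fibroblasts. In mural cells of cluster 10 the same scale gave 14.3 for Tsc22d3, 5.86 for Nr3c1, 2.90 for Nr3c2, 0.41 for Fkbp5, 0.13 for Esr1 and 0 for Pgr. In cluster 5 it gave 18.2 for Tsc22d3, 10.1 for Nr3c1, 3.55 for Esr1, 1.5 for Pgr, 0.13 for Nr3c2 and 0.029 for Fkbp5.

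**Figure D1:**
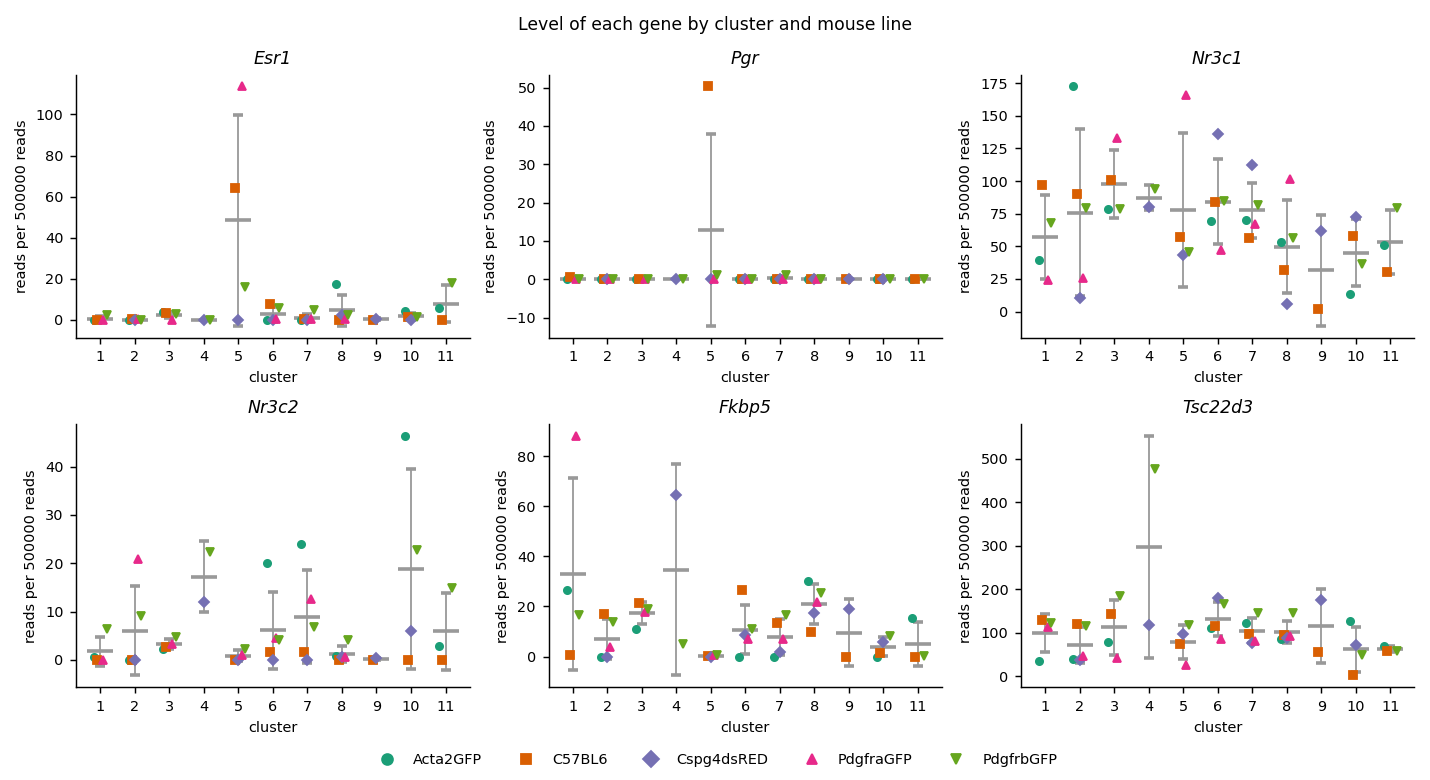
Level of each gene (vertical axis, reads per 500000 endogenous reads of a cell) in clusters 1 to 11 (horizontal axis). Points are mouse lines with at least 3 cells, grey bars the mean and SD over lines, which can reach below 0; Esr1 and Pgr peak in cluster 5, where Fkbp5 lies at its lowest.

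Esr1 had its highest mean level in the sub-epithelial cluster. Its level in cluster 5 was 114 in PdgfraGFP, 64.2 in C57BL6, 16.3 in PdgfrbGFP and 0 in Cspg4dsRED (48.5 ± 51.2, SD, n = 4 lines). In the other fibroblast clusters of the same lines, in this order, it was 0.25, 2.33, 3.64 and 0.68. Cluster 5 was therefore higher in 3 of 4 lines, and the fourth line, Cspg4dsRED, had 3 cells there and no read. Within PdgfrbGFP the cluster 5 level was 25.2, 26.3 and 11.6 on the 3 plates with at least 3 such cells. Outside cluster 5, the next highest clusters were 11 (8.01 ± 9.20, n = 3), 8 (4.63 ± 7.40, n = 5) and 6 (2.78 ± 3.76, n = 5), and cluster 4 had no Esr1 read.

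Sums of reads per line were compared by the quasi-likelihood test of edgeR, blocked by line, and calls were made below an adjusted p of 0.05, adjusted by Benjamini-Hochberg over all genes tested. For cluster 5 against the other fibroblast clusters, 151 of 13988 genes were called, which is 1.08%. None of the 5 tested members was among them, 2 had an unadjusted p under 0.05, and Pgr was too low for the test. DESeq2 called 3 of them (Esr1, Nr3c2 and Fkbp5), beside 9.68% of all genes, and limma-voom 1 (Fkbp5), beside 3.99%. Since the clusters were made from these same values, the test shows to what extent lines repeat a difference, and gives no independent evidence of it. Over all genes tested, the log2 fold change had a median of -0.69 in this comparison, and values are to be read against it. The log2 fold change of Esr1 was 3.39 (SE 1.79, edgeR adjusted p 0.591), which became 4.68 without Cspg4dsRED (adjusted p 0.227) and 1.94 without PdgfraGFP (adjusted p 0.964).

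Read by single cells, the Esr1 pattern held in each of the 3 larger lines. After thinning every cell to 50000 reads, 21 of 76 cluster 5 cells had an Esr1 read (27.6%, exact 95% interval 18% to 39.1%), against 54 of 1272 other fibroblasts (4.25%, 3.21% to 5.50%) and 3 of 125 cluster 10 cells (2.4%). The intervals of cluster 5 and the other fibroblasts did not overlap. That of cluster 11, with a read in 6 of 51 cells (11.8%, 4.44% to 23.9%), overlapped with that of cluster 5. By line, 4 of 15 C57BL6, 0 of 3 Cspg4dsRED, 7 of 22 PdgfraGFP and 10 of 36 PdgfrbGFP cells of cluster 5 had a read. At least 5 reads were found in 18.4% of cluster 5 cells and 2.28% of the other fibroblasts. Before thinning, the shares with at least 1 read were 34.2% and 9.86%. Cluster 5 held 36.8% of all Esr1 reads, and 19 of the 55 cells with at least 10 reads. These intervals cover counting error only, as cells of 1 line are not independent animals.

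Pgr was nearly limited to a handful of cells in 1 line. Its level in cluster 5 was 0 in PdgfraGFP, 50.3 in C57BL6, 1.13 in PdgfrbGFP and 0 in Cspg4dsRED, so 1 line stood far above the other 3. In every other cluster and line with at least 3 cells it was at most 1.21, and in cluster 10 it was 0 in all 4 lines. Cluster 5 held 92.4% of the 657 reads, C57BL6 90.1% and the 10 best-read cells 98.5%. After thinning, 5 of 76 cluster 5 cells had a Pgr read (6.58%, 2.17% to 14.7%), against 4 of 1272 other fibroblasts (0.314%) and 0 of 125 cluster 10 cells (upper limit of the exact interval 2.91%).

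Although Esr1 and Pgr both peaked in cluster 5, no cell there had a thinned read of both. None of the 21 Esr1 cells of cluster 5 had a thinned Pgr read (upper limit of the exact interval 16.1%), and 5 of the 55 cells without Esr1 did (9.09%). C57BL6 was the only line in which each gene was read in more than 1 cell of cluster 5, with Esr1 in 4 of 15 cells and Pgr in 4 others. The remaining Esr1 cells, 7 from PdgfraGFP and 10 from PdgfrbGFP, came from lines with 0 and 1 Pgr cells in cluster 5, so the pooled counts say little on whether the genes avoid each other. Over all 1473 thinned cells, 0 of 78 cells with Esr1 had Pgr.

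**Figure D2:**
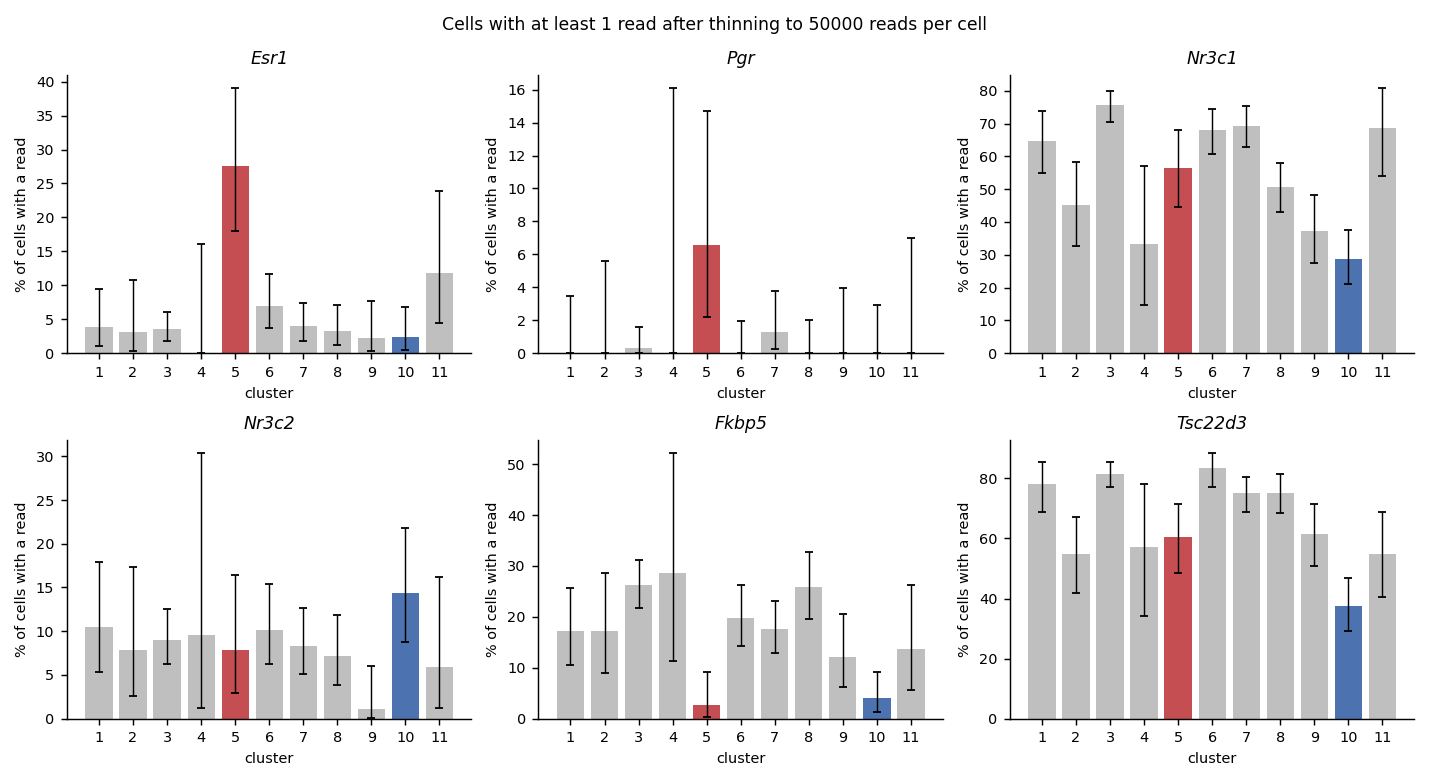
Percent of cells with at least 1 read (vertical axis) after thinning to 50000 reads per cell, by cluster (horizontal axis), with exact 95% intervals for counting error. Cluster 5 is red and cluster 10 blue; for Esr1 cluster 5 stands at 27.6%, and for Fkbp5 clusters 5 and 10 stand at 2.63% and 4%.

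Nr3c1, the glucocorticoid receptor, had a similar level in the 5 lines, while the share of cells in which it was read differed. Its level in all fibroblast clusters was 78.9 in PdgfraGFP, 76.6 in C57BL6, 74.0 in PdgfrbGFP, 64.5 in Acta2GFP and 61.6 in Cspg4dsRED (71.1 ± 7.6, SD, n = 5). After thinning, the share of these cells with a read ran from 34.8% in Cspg4dsRED and 42.9% in PdgfraGFP to 73.4% in PdgfrbGFP. Cluster 3, the largest, had the highest mean (97.7 ± 25.9, n = 4) and cluster 9 the lowest (31.6 ± 42.5, n = 2). In cluster 5 the level was 166 in PdgfraGFP, 56.8 in C57BL6, 45.6 in PdgfrbGFP and 43.5 in Cspg4dsRED, lower than the other fibroblasts in 3 lines and higher in PdgfraGFP. Its log2 fold change there was -0.35 (SE 0.55, edgeR adjusted p 0.903), or 0.35 when the median gene was set to 0.

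In mural cells the Nr3c1 level was 13.6 in Acta2GFP, 58.0 in C57BL6, 72.3 in Cspg4dsRED and 36.2 in PdgfrbGFP, against 69.2 ± 7.2 in the fibroblasts of the same lines. It was lower in 3 of 4 lines, and the groups overlapped (log2 fold change -1.03, SE 0.85, edgeR adjusted p 0.589). This comparison over 125 cluster 10 and 1207 fibroblast cells called 1200 of 13861 genes, which is 8.66%, and its median gene stood at -0.81. It called 0 of the 5 tested members, 0 had an unadjusted p under 0.05 by edgeR, DESeq2 called 1 (Fkbp5), near its background of 21% of all genes, and limma-voom 0, beside 12.3%. At equal depth, Nr3c1 was read in 28.8% of cluster 10 cells (21.1% to 37.6%) and in 63.2% of cells in the fibroblast clusters (60.6% to 65.8%). Pooled shares weight each line by its cells, and the mix of lines differed, with 65 of the 125 cluster 10 cells from Cspg4dsRED and 765 of the fibroblast-cluster cells from PdgfrbGFP. Line by line, the Nr3c1 share was lower in cluster 10 in Acta2GFP (25% against 65.0%), Cspg4dsRED (18.5% against 34.8%) and PdgfrbGFP (42.2% against 73.4%), and 2 of 3 cells against 57.2% in C57BL6. Share and level thus gave opposite orders in C57BL6 and Cspg4dsRED.

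Nr3c2, the mineralocorticoid receptor, had its highest mean in the mural cluster, followed by cluster 4. This order was not firm, since cluster 4 came first without Acta2GFP or with reads summed over cells, and in the 2 lines with both clusters the level in cluster 10 minus that in cluster 4 was -2.89 ± 4.55. Its level in cluster 10 was 46.3 in Acta2GFP, 0 in C57BL6, 5.93 in Cspg4dsRED and 22.7 in PdgfrbGFP (18.7 ± 20.8, n = 4), against 4.73, 1.48, 1.73 and 5.19 in the fibroblasts of these lines. It was higher in 3 of 4 lines, and the exception, C57BL6, had 3 cells in cluster 10. The log2 fold change was 1.84 (SE 1.49, edgeR adjusted p 0.580), and 2.61 (SE 0.84, edgeR adjusted p 0.118) without C57BL6. The reads came from 8 of 12 cells in Acta2GFP, 12 of 45 in PdgfrbGFP and 3 of 65 in Cspg4dsRED, so the level in Cspg4dsRED rested on few cells. At equal depth the share of cells with a read was 14.4% (8.76% to 21.8%) in cluster 10 and 8.16% (6.75% to 9.75%) in the fibroblast clusters.

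Among fibroblasts, Nr3c2 was low in cluster 5. It stood at 1.0 in PdgfraGFP, 0 in C57BL6, 2.31 in PdgfrbGFP and 0 in Cspg4dsRED there, against 8.84, 1.61, 5.34 and 1.77 in the other fibroblast clusters. All 4 lines were lower in cluster 5, but the ranges overlapped (log2 fold change -3.86, SE 1.67, unadjusted p 0.042 and edgeR adjusted p 0.442). The share of cells with a thinned read did not follow, at 7.89% in cluster 5 and 8.18% in the others. Of the 10 clusters pooled as fibroblasts, cluster 4 had the highest mean (17.2 ± 7.3, n = 2 lines, 131 reads in 2 cells).

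Fkbp5 was nearly unread in the sub-epithelial cluster. In cluster 5 its level was 0.58 in PdgfraGFP, 0.10 in C57BL6, 0.41 in PdgfrbGFP and 0 in Cspg4dsRED (0.271 ± 0.267, n = 4). In the other fibroblasts of the same lines it was 12.8, 17, 17.5 and 22.4 (17.4 ± 3.9). Every line was lower in cluster 5 and the groups did not overlap. Overlap of groups, here and below, was not counted over all genes, so it has no background share. Genes that edgeR did not call in cluster 5, such as Sgk1 and Zbtb16, did not overlap either. The whole cluster held 15 Fkbp5 reads, in 11 cells, and no cell there reached 10 reads. The log2 fold change was -6.17 (SE 1.44, unadjusted p 0.00147), and with an adjusted p of 0.0938 by edgeR it missed the threshold. It passed with DESeq2 (adjusted p 1.92e-07), limma-voom (0.00698), scaling by ERCC spike-ins (0.0394), sums per line and plate (0.0172) and without the line as a block (0.0166). ERCC scaling, sums per line and plate and the fit without the block also called more genes, at 1.62%, 5.69% and 2.6% of those tested. Leaving out 1 line gave log2 fold changes from -6.63 to -5.84 and adjusted p from 0.0731 to 0.354.

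Fkbp5 was also lower in mural cells. In cluster 10 it stood at 0 in Acta2GFP, 1.46 in C57BL6, 5.83 in Cspg4dsRED and 8.16 in PdgfrbGFP, against 13.6, 15.6, 21.9 and 16.7 in the fibroblasts. All 4 lines were lower and the groups did not overlap (log2 fold change -2.91, SE 1.56, edgeR adjusted p 0.328). All 120 reads of Cspg4dsRED came from 1 cell, and within PdgfrbGFP the plates ranged from 0.23 to 48.0, the latter over 4 cells. At equal depth, 2 of 76 cluster 5 cells (2.63%, 0.320% to 9.18%), 5 of 125 cluster 10 cells (4%, 1.31% to 9.09%) and 267 of 1272 other fibroblasts (21%, 18.8% to 23.3%) had a read. Cluster 5 had a median depth of 261652 reads per cell, above the 214893 of all cells. Before thinning the shares were 14.5%, 12% and 36.2%.

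Tsc22d3 was high in all classes and differed less. Its level in cluster 5 was 26.9 in PdgfraGFP, 73.9 in C57BL6, 117 in PdgfrbGFP and 98.2 in Cspg4dsRED, against 75.6, 120.1, 159.5 and 147 in the other fibroblasts. All 4 lines were lower, with a difference of -46.7 ± 3.1 that varied little, although the groups overlapped because the lines themselves differed. The log2 fold change was -1.0 (SE 0.45, edgeR adjusted p 0.485), close to the -0.69 of the median gene. In cluster 10 it was 126 in Acta2GFP, 2.01 in C57BL6, 71.1 in Cspg4dsRED and 48.8 in PdgfrbGFP, lower than in fibroblasts in 3 of 4 lines (log2 fold change -1.63, SE 0.88, edgeR adjusted p 0.334). Without C57BL6 the value was -0.78. The share of cells with a thinned read was 37.6% (29.1% to 46.7%) in cluster 10, 60.5% (48.6% to 71.6%) in cluster 5 and 75.2% (72.8% to 77.6%) in the other fibroblasts.

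**Figure D3:**
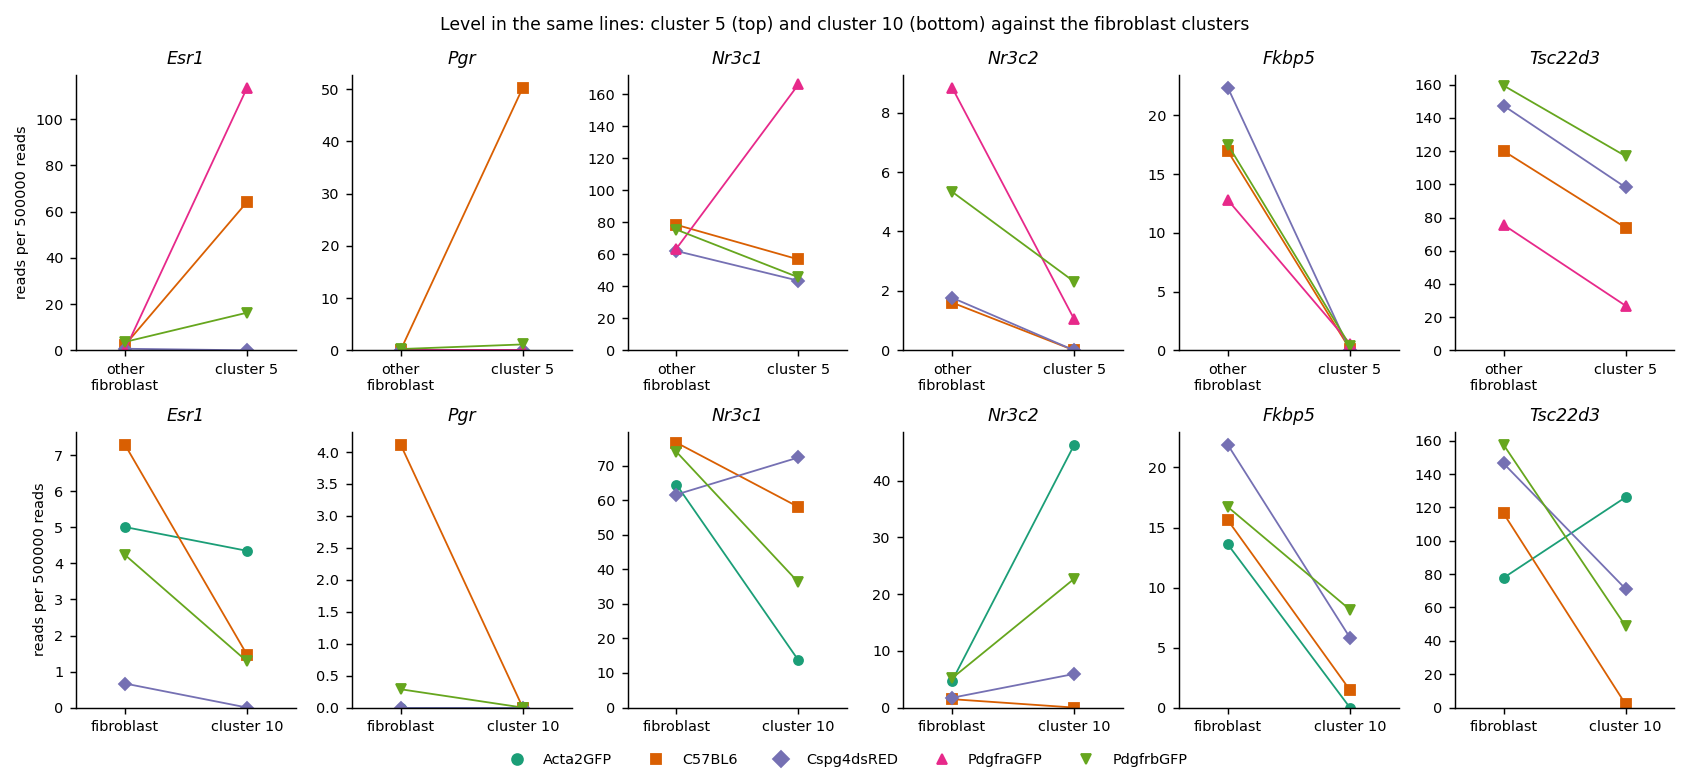
Level (vertical axis, reads per 500000 reads of a cell) of the 6 genes in cluster 5 and the other fibroblasts (top) and in cluster 10 and all fibroblasts (bottom). Each line joins both values of 1 mouse line; the Fkbp5 lines all go down, from 12.8 to 22.4 to at most 0.58 in cluster 5.

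The receptor and its targets were also set side by side within cells. Among other fibroblasts, 23.2% of cells with a thinned Nr3c1 read had an Fkbp5 read (20.4% to 26.3%) and 17.1% of cells without (13.7% to 20.8%). For Tsc22d3 the shares were 79.5% (76.5% to 82.2%) with and 67.8% (63.4% to 72.1%) without Nr3c1. Tsc22d3 was likewise read in 84.3% of Fkbp5 cells and 72.8% of the rest, but by line it was lower with Fkbp5 in Acta2GFP (63.6% against 68.4%) and nearly level in C57BL6 (66.7% against 66.2%). These shares pool lines that differ in the detection of all 3 genes. Within lines the gaps were mostly smaller. In PdgfrbGFP, the line with the most cells, Tsc22d3 was read in 86.7% of cells with and 85.3% of cells without Nr3c1, and in Cspg4dsRED in 56.5% and 54.7%. In the remaining lines the shares were 71.1% and 61% (Acta2GFP), 69.7% and 61.6% (C57BL6) and 56.6% and 47.2% (PdgfraGFP). The Fkbp5 share was higher with Nr3c1 in 5 of 5 lines, from 21.2% against 20.5% in C57BL6 to 18.9% against 5.56% in PdgfraGFP. Thinned cells share a read total but not a number of detected genes, and the part of cell quality in these shares was not tested.

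Order among clusters was mostly unresolved. For each gene the 11 clusters were ranked by mean level and neighbours compared over the lines they share. Of 10 neighbouring pairs, none of Esr1 or Pgr differed by more than the SD of the paired differences, and 1 did for each of the other genes. For Fkbp5 it was cluster 10 above cluster 5, by 4.98 ± 3.28 in 3 of 3 lines. For Tsc22d3 it was cluster 1 above cluster 5 (49.0 ± 40.7, 3 of 3 lines), for Nr3c1 cluster 10 above cluster 9 (33.5 ± 32.3, 2 of 2) and for Nr3c2 cluster 4 above cluster 7 (13.9 ± 2.6, 2 of 2). With 2 lines these order statements are weak.

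Among the 9 fibroblast clusters other than 5, no member differed by the test. Any difference among them was called for 375 of 14776 genes, 2.54%, and for 0 of 5 members by edgeR, with none at an unadjusted p under 0.05 and none by DESeq2, which called 6.09% of all genes. By limma-voom, Tsc22d3 passed with an adjusted p of 0.0140, 1 of 5 members beside 13.9% of all genes. Of the pathway genes described further on, Errfi1, Igf1, Cxcl12 and 4 immediate-early genes passed this edgeR test (Fos, Junb, Egr1 and Ier2, of which Junb and Ier2 are named after their values were seen). Each of these clusters was also set against the other 8. Taking clusters 1, 2, 3, 4, 6, 7, 8, 9 and 11 in order, the background shares of called genes were 0.0427%, 0.237%, 0.00688%, 0.746%, 0.022%, 0.615%, 0.0217%, 0.053% and 0.0681%. Of 44 pairs of a member and a cluster tested, edgeR called 0, limma-voom 0 and DESeq2 1, and 2 had an unadjusted edgeR p under 0.05. These were Nr3c1 in cluster 3, at a log2 value of 0.61 (SE 0.20, edgeR adjusted p 0.833), and Nr3c2 in cluster 8, with -3.17 (SE 1.39, edgeR adjusted p 0.672). The latter was the pair that DESeq2 called, at -3.01 and an adjusted p of 0.0488, in a comparison where it called 5.15% of all genes.

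Between lines and plates there was 1 sum each, so these values are a description. In all fibroblast clusters together, Esr1 ranged from 0.67 in Cspg4dsRED to 17.2 in PdgfraGFP, where 556 of 567 reads lay in cluster 5, and from 0.25 to 5.01 when cluster 5 was left out. Tsc22d3 ranged from 68.3 in PdgfraGFP to 158 in PdgfrbGFP. On the plate with both lines, Tsc22d3 was 77.7 in Acta2GFP and 145 in PdgfrbGFP fibroblasts, and over the 3 PdgfrbGFP plates it ran from 128 to 183. Fkbp5 ran from 9.50 to 22.4 over these plates, a range as wide as that of 11.0 to 21.9 over the 5 lines.

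The wider pathway was read from lists of genes. Hsd11b1, the enzyme that regenerates active glucocorticoid from its inactive keto form inside cells, was lower in mural cells than in the pooled fibroblast clusters. Its level was 10.0 ± 12.9 in cluster 10 and 302 ± 71 in fibroblasts (n = 4 lines, lower in 4 of 4). The log2 fold change was -5.88, with an SE of 0.86 and an edgeR adjusted p of 0.000148. The call held under all 14 alternatives. A low share of cells with a thinned Hsd11b1 read was not particular to cluster 10 (27.2%, 19.6% to 35.9%). Cluster 4 had 28.6% (11.3% to 52.2%), and the fibroblasts without clusters 4 and 5 had 91.4%. In cluster 4 against the other 8 clusters, 1 of 5 enzymes tested was called lower, beside 0.746% of all genes called in either direction. In cluster 5 Hsd11b1 was at 333 ± 166 against 319.8 ± 28 and was not called (log2 fold change -0.30, edgeR adjusted p 0.862). It was the 1 enzyme called among 5 tested of 11 listed in cluster 10, beside 8.66% of all genes, and none was called in cluster 5, beside 1.08%. The 9 coregulators and 10 chaperones gave 0 calls in both comparisons.

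Few of the 25 other glucocorticoid-responsive genes, all tested, were called. In cluster 10, 3 rose and 0 fell, beside 2.48% of all genes called higher (344) and 6.18% called lower (856), with a median log2 fold change of 0.96 against -0.81 for all genes. The split over all genes was 519 higher and 352 lower with the median gene at 0. An unadjusted p under 0.05 was found for 11 of the 25, beside 2786 of 13861 genes tested. Zfp36, which destabilizes inflammatory mRNAs, rose by 2.25 (SE 0.30, edgeR adjusted p 5.18e-05), from 318 ± 79.6 to 1707 ± 462. Errfi1, a feedback inhibitor of EGF receptor signaling, rose by 2.10 (edgeR adjusted p 0.00971), from 86.9 ± 35.1 to 514 ± 376, and Mt1, a metal-binding metallothionein, by 1.76 (edgeR adjusted p 0.0494). The Errfi1 call was lost with ERCC scaling, without Acta2GFP or without PdgfrbGFP, and that of Mt1 held in 5 of 14 alternatives. Per1, a clock gene induced by glucocorticoids, stood at 195 ± 55 against 83.3 ± 22.3, higher in 4 of 4 lines without overlap, but was not called (log2 fold change 0.96, edgeR adjusted p 0.403). It passed in 3 of 14 alternatives, namely with sums per line and plate, without C57BL6 and with at least 10 cells per sum. In this comparison the setting without C57BL6 is also that of at least 10 cells per sum. Sgk1, a kinase that regulates sodium transport, and Zbtb16, a zinc finger repressor, were not called either (-2.18 and -3.84, edgeR adjusted p 0.332 and 0.197), although DESeq2 called Zbtb16 (adjusted p 0.00867).

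In cluster 5, 2 of the 25 fell and 0 rose, beside 0.458% of all genes called higher (64) and 0.622% called lower (87), a split that turned to 140 higher and 47 lower with the median gene at 0. The median was -2.21 against -0.69 for all genes. Errfi1 fell by 5.45 (log2, SE 0.89, edgeR adjusted p 0.0155), from 84.0 ± 29.1 to 3.45 ± 2.99. Dusp1, a phosphatase that switches off MAP kinases, fell by 3.12 (SE 0.58, edgeR adjusted p 0.0295), from 891 ± 266 to 135 ± 113. Both were lower in 4 of 4 lines without overlap. The Errfi1 call was lost without PdgfraGFP or PdgfrbGFP, and the Dusp1 call with the median gene at 0 and without Cspg4dsRED, which is also the setting of at least 10 cells per sum. In all, 11 genes of the list had an unadjusted p under 0.05, these 2 included, beside 1458 of 13988 genes tested. Sgk1 (11.7 ± 9.7 against 64.8 ± 8.4), Zbtb16 (1.06 ± 1.55 against 9.25 ± 5.48) and Per1 (51.8 ± 60.3 against 88.9 ± 25.2) were not called, with edgeR adjusted p from 0.299 to 0.546, although DESeq2 called Zbtb16 (adjusted p 0.00364) and Sgk1 (0.0443). The 2 comparisons share their fibroblast cells, so they are not independent of each other.

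**Figure D4:**
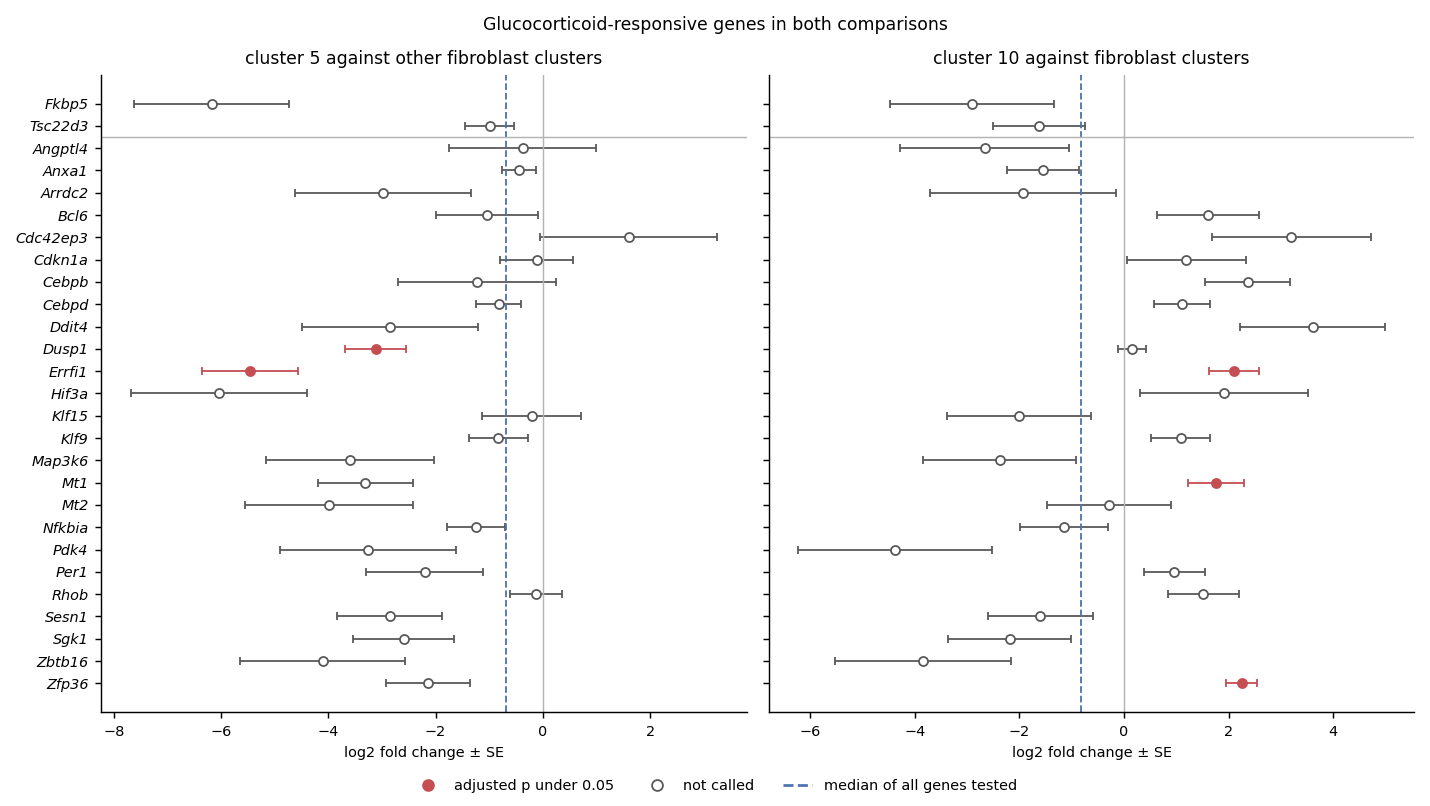
Log2 fold change with SE (horizontal axis) of Fkbp5, Tsc22d3 and the 25 listed glucocorticoid-responsive genes (rows) in cluster 5 (left) and cluster 10 (right) against the fibroblasts. Filled red points were called by edgeR, 2 on the left and 3 on the right, and the dashed line is the median of all genes tested, at -0.69 and -0.81.

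Several of these genes also answer to cell isolation, so the immediate-early genes were set beside them. The summed level of 9 immediate-early and heat shock genes (Fos, Fosb, Jun, Junb, Egr1, Ier2, Atf3, Hspa1a, Hspa1b) was 1622 ± 721 in cluster 5, the lowest mean of the 11 clusters, 5306 ± 914 in the other fibroblasts and 9989 ± 3805 in cluster 10. It moved in the same direction as the called glucocorticoid-responsive genes in both comparisons. In cluster 10 it moved opposite to Fkbp5 (log2 fold change -2.91), Tsc22d3 (-1.63), Sgk1 (-2.18) and Zbtb16 (-3.84), none of them called by edgeR. In cluster 10, 3 of the 9 rose and 0 fell, beside 2.48% of all genes called higher. Atf3 (2.40), Fos (1.09) and Jun (1.08) rose by these log2 fold changes, with edgeR adjusted p of 0.00120, 0.00198 and 0.0299. The Jun call was kept in 6 of 14 alternatives and lost, among others, without Acta2GFP, without Cspg4dsRED or without PdgfrbGFP. Scaling by ERCC spike-ins ended all 3 calls and DESeq2 those of Fos and Jun. In cluster 5, 1 of the 9 fell, beside 0.622% of all genes called lower, and 8 had an unadjusted p under 0.05. Egr1 fell by 1.35 on the log2 scale (edgeR adjusted p 0.0444), a call kept in 6 of 14 alternatives. Low values were not particular to cluster 5. In cluster 7 against the other 8 clusters, edgeR called 5 of the 9 lower, beside 0.615% of all genes called in either direction. In cluster 11 it called 1 higher, beside 0.0681%. The part of the isolation response in the levels of Fkbp5, Tsc22d3 and the listed genes was not tested.

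Of 4 listed estrogen-responsive genes, 3 were tested. In cluster 5, 1 was called lower, beside 0.622% of all genes, and in cluster 10, 2 were, beside 6.18%. The third, Ccnd1, a cyclin that drives entry into the cell cycle, was called in neither, with log2 fold changes of 1.35 (SE 1.43, edgeR adjusted p 0.849) in cluster 5 and 1.30 (SE 1.36, edgeR adjusted p 0.697) in cluster 10, and is named after its values were seen. Cxcl12, a chemokine, fell in cluster 5 by 1.90 (log2, SE 0.24, edgeR adjusted p 0.00319), from 719 ± 166 to 208 ± 49.6, in the cluster where Esr1 had its highest level. The call was lost with DESeq2. Igf1, a growth factor, was at 33.0 ± 27.8 against 113 ± 49.7 and was not called (edgeR adjusted p 0.156). In cluster 10 both fell, Igf1 by 5.19 and Cxcl12 by 3.19 (edgeR adjusted p 0.00266 and 0.000714), in 4 of 4 lines and in all 14 alternatives. Greb1, a coactivator induced by estrogen, had too low a count for the test, with a level of at most 0.22 in any line.

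Likeness was measured over the 29 sums of a line and a cluster with at least 10 cells, as the Pearson correlation of log2(CPM + 1) among 9968 genes with a mean CPM of at least 10. The sums share lines and libraries, so the values only describe. Nearest to Esr1 were Tiam1, an exchange factor for Rac (r 0.87), Ppp1r3b (0.77) and Nfrkb (0.75). Nearest to Fkbp5 were Ezr, which ties the membrane to actin (0.87), Pianp (0.83) and Ccl11, the chemokine eotaxin (0.83). For Nr3c1 they were Tor2a (0.85), Elf1 (0.84) and Itgb1bp1 (0.81), for Tsc22d3 Acaa2 (0.79), Fam124a (0.74) and Bsg (0.71), and for Nr3c2 Gm20708 (0.72), Tstd3 (0.71) and 9130023H24Rik (0.71). Pgr, at 0 in 22 of the 29 sums, had AI593442 (0.62), Prss35 (0.62) and Ptprr (0.61).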

How the data were processed

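Raw read counts per gene and cell were deposited by the authors as 1 table of 46517 gene rows, 92 ERCC spike-in rows and 1479 cells. Per the methods, reads were trimmed with trim galore, mapped to GRCm38 (mm10) with TopHat2 and counted with featureCounts, and shallow or contaminated cells were removed. The annotation release and strand setting are not given in the sources used here. The methods also name a removal of doublets with samtools before counting; whether this took out PCR duplicates is not stated, and without molecular identifiers PCR copies may remain among the reads. Symbols and coordinates came from GENCODE M21. Counts were summed per line and class with at least 3 cells and tested with edgeR 4.0.16 (TMM, filterByExpr, quasi-likelihood, line as block). P-values set the difference between classes within lines against its variation from line to line, which may be technical. The block was kept because sums of 1 line share mice and plates. Genes named are the 6 members, called genes of fixed lists (up to 3 per list and comparison, largest change, same sign in every line), and Hsd11b1, Per1, Zbtb16, Sgk1 and Greb1. Some listed genes are not reported here. Members and lists were chosen with earlier results of these data known. The test was also run on simulated counts, whose outcome is not given here. They were drawn without a difference in mean between lines, so that run cannot speak for lines that differ. Alternatives used DESeq2 1.42.0, limma 3.58.1 and other scalings, filters and sums. Thinning left out 6 shallower cells. Shares have exact Clopper-Pearson 95% intervals, which cover counting error only. Tables and plots used Python 3.11.15 and R 4.3.3.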

Additional observations from a re-analysis of the deposited data

Results flagged for a closer look

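In 14 of 52 groups of 4 or 5 lines, 1 line stood apart in the level of a member by Dixon's criterion at 95%. For normally distributed values it flags about 1 group in 20. A group with reads in only 1 line is always flagged, so the count cannot be weighed against that rate. Levels are reads per 500000 reads of a cell. Most of these groups were of low genes with nearly all other lines at 0. Pgr was high in C57BL6 in cluster 5 (50.3), cluster 1 (0.477), cluster 2 (0.144) and the fibroblast clusters together (4.11), and in PdgfrbGFP in cluster 7 (1.21) and cluster 6 (0.00814). Esr1 was high in PdgfrbGFP in cluster 1 (2.44) and cluster 7 (4.73) and in Acta2GFP in cluster 8 (17.7). Nr3c2 was high in PdgfrbGFP in cluster 1 (6.33) and cluster 8 (4.10) and in Acta2GFP in cluster 6 (20.1). 2 flags concerned well-read genes: Nr3c1 in cluster 5 at 166 in PdgfraGFP, with the other lines from 43.5 to 56.8, and Tsc22d3 in cluster 8 at 146 in PdgfrbGFP, with the others from 85.3 to 94.4.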

How the results depend on the processing

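The main edgeR fit called 0 members in every comparison. For cluster 10, DESeq2 called 1. For cluster 5, DESeq2 called 3, Fkbp5 among them. Limma-voom called 1, as did the edgeR fits with ERCC scaling, sums per line and plate, or no replicate block, Fkbp5 each time. Over all genes these settings called, in this order, 1354, 558, 226, 782 and 364, against 151 in the main edgeR fit. The fit without the block changed no other count of members. For any difference among 9 fibroblast clusters limma-voom called 1, and for single clusters DESeq2 called 1. Leaving out 1 line in turn gave 0 members wherever it was run, which excludes clusters 4 and 9 with 2 lines each. With the median gene at 0 the sign turned for Nr3c1 (0.35) and Hsd11b1 (0.39) in cluster 5, and with limma-voom for Hsd11b1 in cluster 5 (0.074), none of them called. Of 420 values of members and named genes under the alternatives, 366 kept direction and side of the threshold, 37 lost a call and 14 gained one. The cluster with the highest level was kept for 3 of 6 members when reads were summed over cells, and for 4 to 5 when 1 line was left out; it moved in at least 1 setting for Nr3c1, Nr3c2, Fkbp5 and Tsc22d3 and in none for Esr1 and Pgr. The line and plate with the highest level were kept for 3 of 6 per 1000 ERCC reads. The causes were not tested. Small sums (3 cells of Cspg4dsRED in cluster 5 and 3 of C57BL6 in cluster 10) and the low depth of Esr1, Pgr and Nr3c2 limit these comparisons.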
